A study of Mus musculus with 6 samples.

Results

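The genes described here are 10 epithelial genes of the mouse liver: the keratins Krt8, Krt18, Krt7, Krt19 and Krt23, the duct transcription factor Sox9, the surface proteins Epcam, Cd24a and Tspan8, and the secreted phosphoprotein gene Spp1. They were taken by gene symbol from a table with 1 probe set per gene, in which all 10 were found among 16331 gene probe sets. RNA from 6 mouse liver samples was measured on Affymetrix arrays, 3 of them labelled wildtype (arrays 426, 428 and 430) and 3 labelled as lacking Ugcg (arrays 427, 429 and 431, called knockout arrays after their titles). Ugcg encodes the ceramide glucosyltransferase that starts the synthesis of most glycosphingolipids. Strain, sex, age, the cells in which Ugcg was lost and the agent that removed it are not recorded in the labels. Nor do they say that each sample came from its own animal, so a p-value measures sample-to-sample spread, part of which may be technical. All values are expression values taken to be log2 from their range, on which every fold given here rests, and all differences are knockout minus wildtype.

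Keratins are the intermediate filament proteins of epithelia and polymerise as pairs of a type I and a type II chain. Hepatocytes build their filaments from keratin 8 (type II) and keratin 18 (type I), whereas cholangiocytes, the cells that line the bile ducts, also make keratin 7 (type II) and keratin 19 (type I). Sox9, Epcam, Cd24a and Spp1 are widely used markers of cholangiocytes and of liver progenitor cells, and Tspan8 is a tetraspanin of epithelial membranes. In whole liver RNA, fewer cells of a type and less RNA per cell cannot be told apart.

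The main pattern in these genes was a single array. In knockout 429, Krt19, Cd24a and Tspan8 exceeded the mean over the remaining 5 arrays by 1.77-fold to 2.43-fold and Epcam exceeded it by 1.48-fold. In contrast, Krt7, Krt18 and Sox9 lay within 1.06-fold of that mean and Krt8 was 1.11-fold above it. Spp1 was 1.24-fold above it and highest in that array, whereas Krt23 was at 0.89-fold of it and lowest there. None of the 10 genes differed between the knockout and wildtype groups at a limma adjusted p under 0.05. The hepatocyte keratins Krt8 and Krt18 differed between the groups by less than the spread among arrays of a group.

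The labels and tissue were checked first. The Ugcg probe set read between 6.81 and 6.87 on the wildtype arrays and 7.12, 6.70 and 6.68 on knockout 427, 429 and 431, with a group difference of -0.01 (SE 0.12, limma adjusted p = 0.998); whether its probes lie in the deleted part is not stated, so the labels are not checked by this value. Albumin (Alb) read 14.60 to 14.69 on all arrays, and the array medians ran from 6.79 to 6.81. Wildtype 430 stood apart by its pancreatic transcripts: all 14 measured genes of the exocrine pancreas were lower on average in the knockout arrays, and the mean of that list was 9.16 in wildtype 430 and 6.48 to 6.61 on the other 5 arrays. The pancreatic ducts are an epithelium with Krt19 and Sox9 too. Wildtype 430 read 6.45 for Krt19 and 6.40 for Sox9, the lowest Sox9 value of the 6, and the part of pancreatic tissue in the values of the 10 genes was not tested.

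The 250 bases before the annotated start of 4 genes are shown because these genes stand for both behaviours, Krt8 and Krt18 for the hepatocyte pair that did not stand out in knockout 429 and Epcam and Tspan8 for the genes that did. The sequences are RefSeq's for GRCm38.p6, read along the gene's own strand, and that build goes with the sequences only and not with the array values. Capitals mark the matches of 2 short motifs searched on both strands, ACAAAG (the core bound by SOX factors; CTTTGT when read on the opposite strand) and GGGCGG (the GC box; CCGCCC on the opposite strand). Another motif, GGAATG (the core bound by TEAD factors), was also searched and has no match in them. The motifs did not overlap.
Krt8 (chr15:102004343-102004592, minus strand): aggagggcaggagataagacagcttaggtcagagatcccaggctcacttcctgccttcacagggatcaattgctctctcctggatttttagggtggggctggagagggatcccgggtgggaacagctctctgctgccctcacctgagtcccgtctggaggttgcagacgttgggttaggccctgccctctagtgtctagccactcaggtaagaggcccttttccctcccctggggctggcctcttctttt
Krt18 (chr15:102027966-102028215, plus strand): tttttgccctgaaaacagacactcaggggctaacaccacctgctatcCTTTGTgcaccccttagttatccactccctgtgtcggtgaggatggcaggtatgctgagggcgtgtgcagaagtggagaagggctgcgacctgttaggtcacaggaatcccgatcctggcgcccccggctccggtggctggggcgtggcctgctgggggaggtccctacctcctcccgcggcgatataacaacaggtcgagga
Epcam (chr17:87635729-87635978, plus strand): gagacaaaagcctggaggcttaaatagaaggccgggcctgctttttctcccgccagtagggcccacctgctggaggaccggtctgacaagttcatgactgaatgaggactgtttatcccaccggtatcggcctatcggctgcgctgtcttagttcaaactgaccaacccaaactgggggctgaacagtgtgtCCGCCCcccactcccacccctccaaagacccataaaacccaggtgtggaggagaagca
Tspan8 (chr10:115817034-115817283, plus strand): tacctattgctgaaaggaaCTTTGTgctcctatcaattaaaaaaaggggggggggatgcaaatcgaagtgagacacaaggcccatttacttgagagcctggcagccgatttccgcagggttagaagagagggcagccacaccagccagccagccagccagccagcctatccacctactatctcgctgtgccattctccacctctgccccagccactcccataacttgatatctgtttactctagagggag

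Of the 10 genes, 7 had an entry among these promoters, with 8 windows because Spp1 has 2 starts. ACAAAG was found in 4 of the 8 windows (both of Spp1, Tspan8 and Krt18) and in 16.5% of all 32851 promoter windows of the same length. GGGCGG was found in 2 of the 8 (Epcam, with 1 match, and Krt7, with 4) and in 32.7% of all windows, and GGAATG in 0 of the 8 and in 12.6% of all. Thus Epcam and Tspan8 shared none of the 3 motifs in this window. Krt8 and Krt18 lie on the same chromosome on opposite strands, and neither window holds a GC box. A match is a string of letters and not evidence of binding.

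The hepatocyte keratins came first. Krt8 read 10.84, 11.36 and 10.92 on wildtype 426, 428 and 430 and 10.99, 11.19 and 11.08 on knockout 427, 429 and 431. The knockout values all lay inside the wildtype range. The difference was 0.04 (SE 0.13, 95% interval -0.25 to 0.34, limma adjusted p = 0.996).

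Krt18, the type I partner of Krt8, read 10.90, 11.28 and 10.97 on the wildtype and 10.64, 11.02 and 11.20 on the knockout arrays. Knockout 427 was the lowest of the 6, wildtype 428 was the highest, and the groups overlapped. The difference was -0.10 (SE 0.15, 95% interval -0.44 to 0.24, limma adjusted p = 0.987), and it became 0.06 without knockout 427 and 0.01 without wildtype 428. The sign of Krt8 also turned, to -0.06 without wildtype 426, -0.02 without wildtype 430 and -0.01 without knockout 429.

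Because the proteins of this pair depend on each other, their transcripts were also set against each other within each array. Krt8 minus Krt18 was -0.06, 0.08 and -0.05 on the wildtype arrays and 0.35, 0.17 and -0.12 on the knockout arrays, which shows how the balance of the 2 probe sets shifted between arrays and not which transcript is more abundant. The groups overlapped, and their means differed by 0.14 (two-sided exact permutation test, p = 0.4; 3 against 3 arrays cannot go below 0.1). Both keratins were highest in wildtype 428, and knockout 427, with the lowest Krt18, had the widest gap between them.

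**Figure D1:**
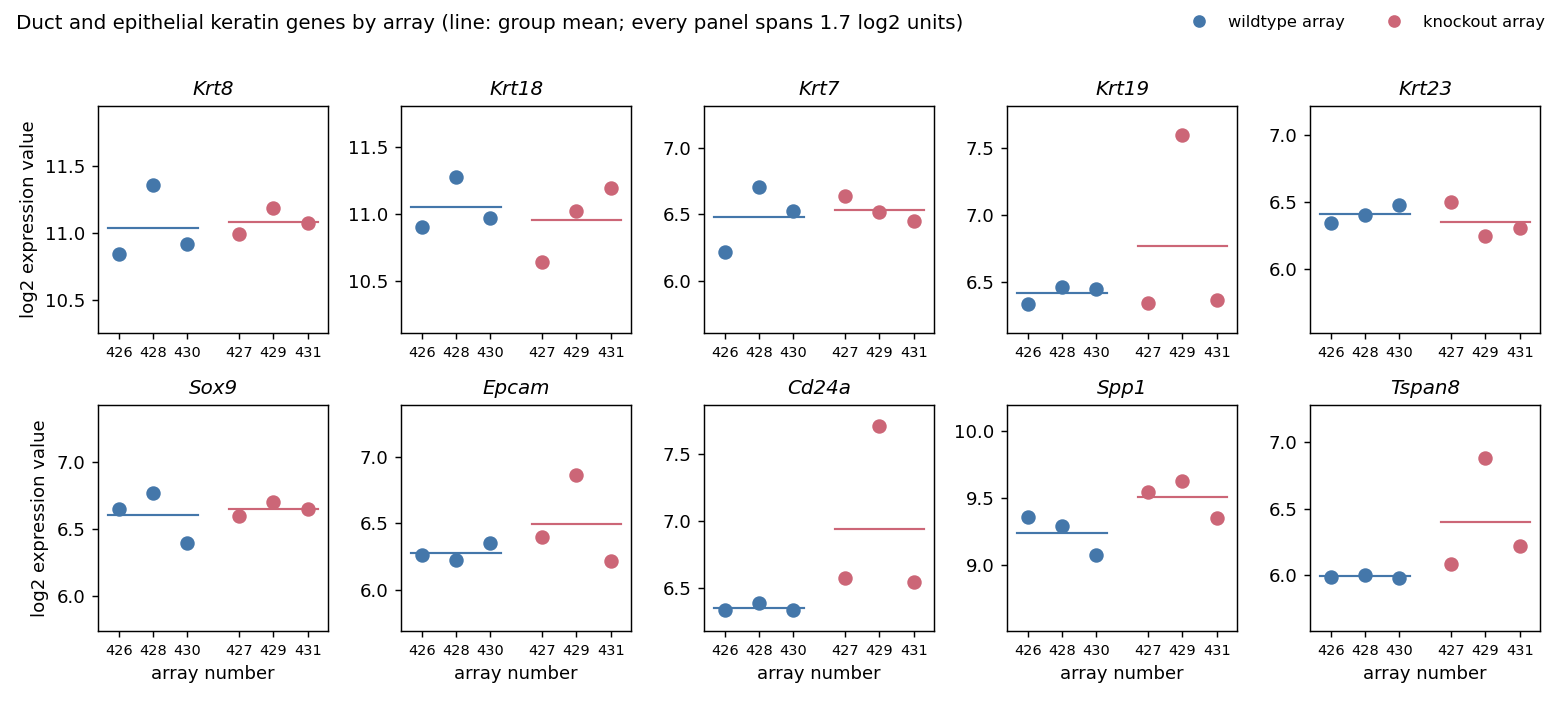
Log2 expression value (vertical axis) of each of the 10 genes on the 3 wildtype (blue) and 3 knockout (red) arrays, named by array number on the horizontal axis; lines are group means and every panel spans the same number of log2 units. Krt19 (7.60), Cd24a (7.71), Tspan8 (6.88) and Epcam (6.86) stand above all other arrays in knockout 429, whereas no array stands apart in this way for Krt8, Krt18, Krt7 or Sox9.

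Of the keratins that mark ducts, Krt19 gave the clearest single-array signal. It read 6.33, 6.46 and 6.45 on the wildtype arrays, 6.34 and 6.37 on knockout 427 and 431, and 7.60 on knockout 429. The other 5 arrays lay within 0.13 of each other, and knockout 429 lay 1.14 above the next. The group difference was 0.36 (SE 0.29, 95% interval -0.30 to 1.01, limma adjusted p = 0.982), and without knockout 429 it was -0.06 (95% interval -0.25 to 0.13).

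Krt7, the type II keratin that ducts make beside Krt19, did not follow it. It read 6.22, 6.71 and 6.52 on the wildtype and 6.64, 6.52 and 6.45 on the knockout arrays. Knockout 429 was close to the middle of the 6 and differed from the mean of the others by 0.01, and wildtype 426 was the lowest. The group difference was 0.05 (SE 0.12, 95% interval -0.22 to 0.32, limma adjusted p = 0.996), and -0.08 without wildtype 426.

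Krt23, a type I keratin of simple epithelia, read 6.34, 6.40 and 6.48 on the wildtype and 6.50, 6.24 and 6.31 on the knockout arrays. Its lowest value was the one in knockout 429, the array in which Krt19 was highest. Its whole range was 0.25, at a mean level at the 34.2 percentile of all probe sets. The group difference was -0.06 (SE 0.09, 95% interval -0.25 to 0.13, limma adjusted p = 0.987).

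The rest of the keratin family was read beside these values. Only 3 of the 33 genes passed a filter at the 40th percentile of mean level. For most of them the absence of a difference or gap therefore carries little information. Of 33 other measured keratins of skin, hair and internal epithelia, 20 had a difference above 0 and 13 one below 0, with a median of 0.01 against 0.006 over all 16331 probe sets. None passed the adjusted threshold, and 2 had an unadjusted p under 0.05: Krt15, a keratin of basal cells (-0.20, limma adjusted p = 0.952), and Krt78 (0.28, limma adjusted p = 0.982). Knockout 429 was the highest array for 5 of the 33, and for none of them by 0.5 or more; the widest such gap was 0.20, for Krt78.

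Epcam, an adhesion molecule of cholangiocytes and progenitors that adult hepatocytes lack, read 6.26, 6.23 and 6.35 on the wildtype and 6.40, 6.86 and 6.22 on the knockout arrays. Knockout 429 lay 0.46 above the next array, while knockout 431 was the lowest of all. The difference was 0.21 (SE 0.14, 95% interval -0.12 to 0.54, limma adjusted p = 0.982), and 0.03 without knockout 429.

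Cd24a, a glycosylphosphatidylinositol-anchored surface protein of duct cells, progenitors and several blood lineages, read 6.33, 6.38 and 6.33 on the wildtype and 6.57, 7.71 and 6.54 on the knockout arrays. All 3 knockout arrays lay above all 3 wildtype arrays, so the groups did not overlap. The difference was 0.59 (SE 0.27, 95% interval -0.02 to 1.198, limma adjusted p = 0.982). Without knockout 429 it was 0.20 (95% interval 0.03 to 0.38, limma adjusted p = 0.997).

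Tspan8 read 5.99, 6.01 and 5.98 on the wildtype and 6.09, 6.88 and 6.22 on the knockout arrays. The wildtype SD was 0.01, and again each knockout array lay above each wildtype array. The mean level of Tspan8 was low, at the 24.6 percentile of all probe sets, where a small SD need not mean precision. The difference was 0.40 (SE 0.18, 95% interval 0.004 to 0.80, limma adjusted p = 0.982), and 0.16 without knockout 429 (95% interval -0.02 to 0.35).

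Tspan8 is 1 of a large family, so the other tetraspanins were read beside it. Of 25 measured, 16 had a difference above 0 and 9 one below 0 (median 0.04), and none passed. Tspan12 (-0.40), a partner of Frizzled receptors, and the broadly made Cd9 (0.18) and Tspan4 (0.18) had the smallest p-values of this list, each with a limma adjusted p of 0.982. No other tetraspanin was highest in knockout 429 by 0.5 or more.

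Spp1 encodes osteopontin, which is secreted by cholangiocytes and by activated macrophages. It read 9.36, 9.29 and 9.07 on the wildtype and 9.55, 9.63 and 9.35 on the knockout arrays. Knockout 431 lay just below wildtype 426, which is the only overlap between the groups. The difference was 0.27 (SE 0.10, 95% interval 0.04 to 0.50), with an unadjusted p of 0.0278 and a limma adjusted p of 0.952. It kept its sign in every fit that left out 1 array, with 0.19 to 0.35. Without knockout 429 it was 0.21, with a 95% interval of -0.05 to 0.47 and an unadjusted p of 0.0999. In the Kupffer cell and macrophage list, 10 of 12 genes had a difference below 0 (median -0.11) and none passed; the median was 0.04 without knockout 431. The mean level of that list was lowest in knockout 431 (7.93) and highest in knockout 429 (8.41), where Spp1 was highest too, and the part of macrophages in the Spp1 values was not tested.

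Sox9, the transcription factor of duct fate, read 6.65, 6.77 and 6.40 on the wildtype and 6.59, 6.70 and 6.65 on the knockout arrays. The knockout values lay inside the wildtype range. The difference was 0.04 (SE 0.10, 95% interval -0.18 to 0.27, limma adjusted p = 0.996), and -0.06 without wildtype 430.

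**Figure D2:**
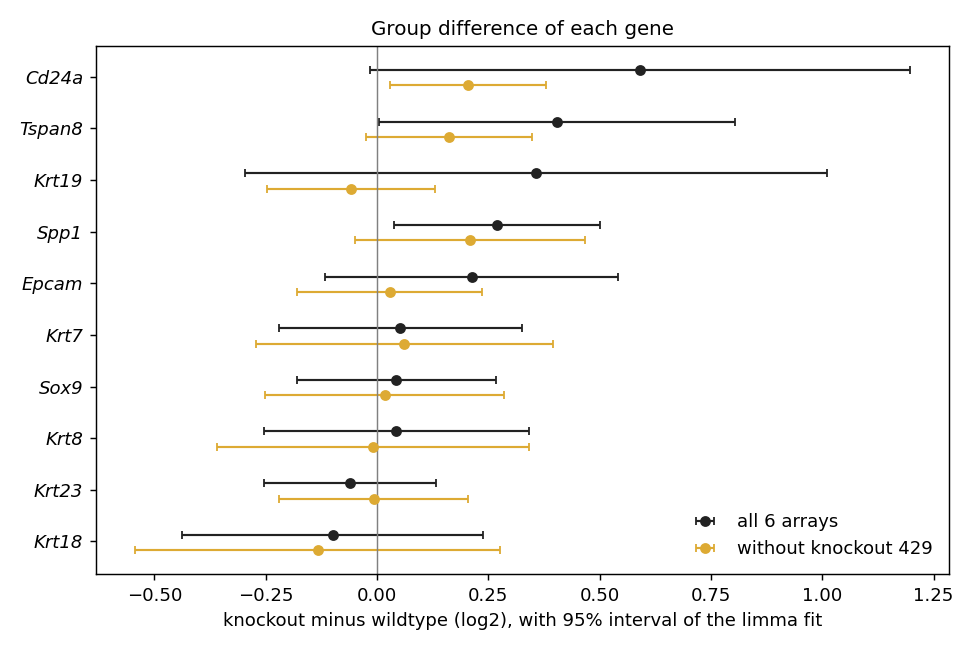
Knockout minus wildtype difference in log2 (horizontal axis) for each gene with its 95% interval from limma, over all 6 arrays (black) and without knockout 429 (yellow). Krt19 goes from 0.36 to -0.06, Cd24a from 0.59 to 0.20 and Tspan8 from 0.40 to 0.16 when that array is left out. Spp1 goes from 0.27 to 0.21.

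As a set, 8 of the 10 genes had a difference above 0, with a median of 0.13, against 8575 of 16331 probe sets and a median of 0.006 in the whole table. Without knockout 429, 6 of the 10 were above 0, with a median of 0.02. At an adjusted p under 0.05 limma called 0 of the 10, where 0.0245% of all probe sets were called. At an unadjusted p under 0.05 there were 2 of the 10 (Spp1 and Tspan8), where 4.99% of all probe sets reached it. The groups did not overlap for 2 of the 10 (Cd24a and Tspan8), beside 9.57% of all probe sets.

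The count of genes highest in knockout 429 was further from the whole table. Knockout 429 was the highest array for 5 of the 10 (Krt19, Cd24a, Epcam, Spp1 and Tspan8), where it was so for 18.9% of all probe sets. Such shares were not particular to duct genes: it was highest for 6 of 12 Kupffer cell and macrophage genes, 5 of 8 neutrophil genes and 3 of 7 kidney genes. For hepatocyte genes it was 1 of 9, for keratin anchors 0 of 14 and for red cell precursors 0 of 6. No gene of these lists was highest there by 0.5 or more. Among the 10 genes, knockout 429 was highest by at least 0.5 for 3 (Krt19, Cd24a and Tspan8), where this held for 28 probe sets in all, or 0.171%. Tspan8 at 0.66 was the nearest inside that limit and Epcam at 0.46 the nearest outside it. No other array was highest by 0.5 for any of the 10. That knockout 429 stands out in duct genes was known from earlier results of these data when the genes were chosen, so these counts describe it and do not test it.

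Genes known from bile ducts but outside the 10 were then read in the same way. Of 29 measured, 21 had a difference above 0 and 8 one below 0 (median 0.10, and 0.02 without knockout 429). Knockout 429 was the highest array for 13 of them and by at least 0.5 for 3. These were Prom1, a membrane glycoprotein of progenitor cells (7.37, against 6.24 to 6.40), Muc1, an apical mucin (7.18, against 6.22 to 6.31), and Anxa13, an annexin of polarised epithelia (7.25, against 6.08 to 6.40).

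None of the 29 passed. Vtcn1, a B7 family surface protein (0.19, limma adjusted p = 0.952), and Itga6, a laminin-binding integrin (0.20, limma adjusted p = 0.982), were the ones with an unadjusted p under 0.05. The tight junction gene Cldn7 (0.21) followed, and was 6.51 in knockout 429 and 5.999 to 6.17 elsewhere. The secretin receptor gene Sctr, a defining gene of cholangiocytes, read 6.50 in knockout 429 and 6.41 to 6.90 on the others. The chloride channel gene Cftr read 5.60 to 5.69 on all arrays, among the lowest values of the table, so its level carries little information.

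Onecut1, a transcription factor of hepatocytes and of developing ducts, followed other arrays. It read 8.49, 8.04 and 9.64 on wildtype 426, 428 and 430 and 9.30, 8.04 and 8.18 on knockout 427, 429 and 431, so wildtype 430 and knockout 427 were both high. Slc10a2, the apical bile acid transporter of cholangiocytes and ileum, was highest in the same arrays, with 7.01 and 7.22 against 6.19 to 6.52.

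**Figure D3:**
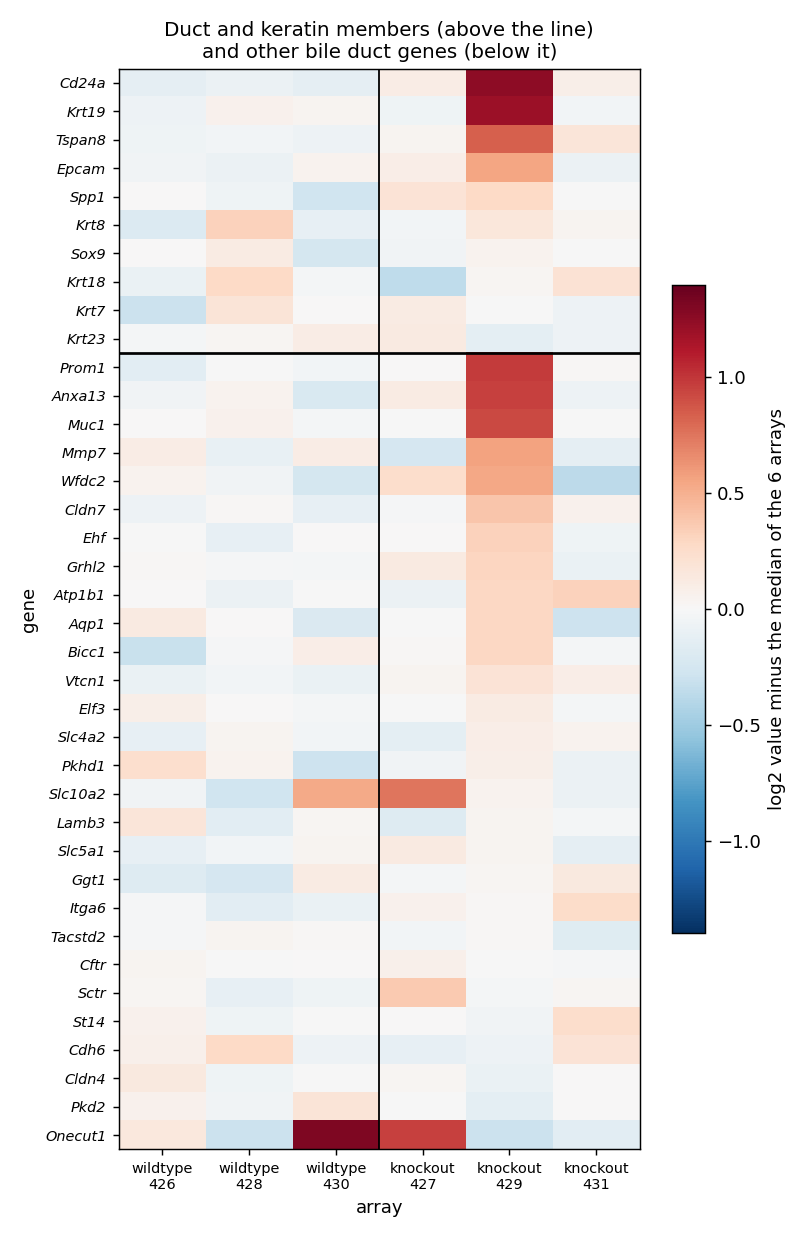
Log2 value minus the median of the 6 arrays (colour) for the 10 genes (above the line) and other bile duct genes (below it), with 1 column per array. The deepest colours in the knockout 429 column are those of Cd24a, Krt19, Prom1, Anxa13, Muc1 and Tspan8, followed by Mmp7, Epcam and Wfdc2, and Onecut1 and Slc10a2 stand out in wildtype 430 and knockout 427.

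The signalling pathways that set duct fate are Notch, whose ligand Jag1 is presented to cells of the forming duct, and the Hippo pathway with its coactivator Yap1. Of 22 measured Notch, Hippo and other regulators of duct fate, 16 had a difference above 0 and 6 one below 0 (median 0.03). None of them passed. Yap1 read 7.92, 8.06 and 7.97 on the wildtype and 8.25, 8.10 and 8.37 on the knockout arrays, without overlap (0.26, unadjusted p of 0.0161, limma adjusted p = 0.951). Jag1 differed by 0.15 (limma adjusted p = 0.982). The groups did not overlap for 2 of the 22 (Yap1 and Jag1), beside 9.57% of all probe sets. No gene of this list was highest in knockout 429 by 0.5 or more, and the Yap1 difference was 0.33 without that array.

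Keratin filaments are anchored at desmosomes and hemidesmosomes by plakin proteins and their partners. Of 14 measured genes of these anchors, 5 had a difference above 0 and 9 one below 0 (median -0.05), and none passed. Plec, the plectin gene whose protein links keratins to other filaments and to the membrane, read 7.74, 7.84 and 7.85 on the wildtype and 8.16, 8.12 and 7.98 on the knockout arrays, again without overlap. Its difference was 0.27 (unadjusted p of 0.00608, limma adjusted p = 0.888), the smallest p among these epithelial lists. Periplakin (Ppl) differed by 0.26 and plakophilin 1 (Pkp1) by -0.16, each with a limma adjusted p of 0.982. The groups did not overlap for 2 of the 14 (Plec and, in the other direction, Pkp1), beside 9.57% of all probe sets.

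Epithelial adhesion and polarity genes, which hepatocytes and duct cells share, had 11 of 17 differences above 0 (median 0.05). The pericentral claudin gene Cldn2 (0.31, limma adjusted p = 0.951), the transcription factor gene Grhl1 (0.17) and the E-cadherin gene Cdh1 (0.26, both with a limma adjusted p of 0.982) had the smallest p-values. Cdh1 read 9.60, 9.25 and 9.28 on the wildtype and 9.71, 9.71 and 9.49 on the knockout arrays. Knockout 429 was highest in 4 of the 17 and in none of them by 0.5 or more.

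For Krt19 and Cd24a, whose values ranged over more than 1 log2 unit, the genes with the most similar profile were sought over all named probe sets. Likeness was the root mean square difference between values centred on each gene's mean over the 6 arrays. Outside the 10 genes, the 5 nearest to Krt19 were Klf5, a Krüppel-like factor of epithelial proliferation (0.0918), Prom1 (0.0953), Muc1 (0.119), Gas6, the ligand of TAM receptors (0.126), and Acta2, smooth muscle actin (0.141). The 5 nearest to Cd24a were Klf5 (0.0797), Prom1 (0.121), the calcium-binding protein gene S100g (0.121), Gas6 (0.130) and Anxa13 (0.143). Krt19 and Cd24a were each other's nearest among the 10 (0.126). All 7 of these genes were highest in knockout 429, which the choice by likeness to Krt19 and Cd24a largely fixed.

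In that array Klf5 read 7.31 against 5.87 to 6.09 on the other 5, S100g 7.40 against 5.84 to 5.99, Gas6 9.29 against 8.16 to 8.38, and Acta2 9.05 against 7.38 to 7.78. The widest gap of all was that of Dmbt1, a secreted scavenger receptor protein of mucosal and duct epithelia, named after its values were seen. It read 10.91 in knockout 429, 7.24 in wildtype 430 and 5.81 to 5.97 on the other arrays.

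Marker lists of other cells and tissues were read for the same array. Acta2 led to a list of 13 smooth muscle genes, drawn up after values were seen, that of Acta2 included. Knockout 429 was the highest array for 8 of the 13 and by at least 0.5 for 5 (Acta2, Actg2, Myh11, Cnn1 and Myl9). Acta2 is counted among them, so these counts describe the list and do not test it. The mean level of that list was 7.499 in knockout 429 and 6.99 to 7.10 on the other arrays, while desmin (Des) read 7.02 there and 6.87 to 7.03 elsewhere. Of 13 intestinal genes, Lgals4 was highest in knockout 429 by 0.70 (7.87 against 6.76 to 7.18). The mean level of the 13 was 6.59 in knockout 429 and 6.51 to 6.60 on the other arrays. Outside the 13, Muc3 was picked after its value was seen and S100g for its likeness to Cd24a. The intestine makes both too, and both were high in knockout 429 (6.81 against 6.14 to 6.22 for Muc3). Cdx1 read 6.02, Cdx2 6.10 and Cdh17 5.86 in knockout 429, each inside or below the range of the other arrays and with mean levels at the 22.4, 24.2 and 8.58 percentiles of all probe sets, and the part of intestinal tissue was not tested.

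Mesothelial cells, which cover the liver and also make Krt7 and Krt19, were read through 12 genes, of which Krt19 alone was highest in knockout 429 by 0.5 or more. Msln read 6.28 there and 6.26 to 6.34 elsewhere, and Upk3b read 6.45 against 6.35 to 6.66. Only 2 of the 12 passed the filter at the 40th percentile of mean level, so most of them carry little information. The Kupffer cell list had a mean level of 8.41 in knockout 429 and 7.93 to 8.38 on the other arrays. The stellate cell list, which also holds Acta2, read 8.07 there and 7.75 to 8.03 elsewhere; without Acta2 it read 7.98 there and 8.05 in wildtype 428, its highest array. No kidney gene of 7 stood out in knockout 429 by 0.5 or more. The mean level of that list was 6.05 to 6.12 over the arrays, below the array medians, so its values carry little information.

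Blood cells were read because Cd24a is made in several of them. The B cell list had a mean level of 6.68 in knockout 429 and 6.58 to 6.86 on the other arrays. The list of red cell precursors had its lowest mean level there (6.99, against 7.02 to 7.18), and the neutrophil list read 6.74 there and 6.80 in knockout 431, where S100a8 (7.76, against 6.35 to 6.76) and S100a9 (7.59, against 6.48 to 6.85) were highest. Between the groups, differences above 0 were found for 10 of 13 smooth muscle genes, 3 of 13 intestinal genes, 7 of 12 mesothelial genes, 6 of 12 stellate cell genes, 5 of 7 kidney genes, 2 of 7 B cell genes, 6 of 8 neutrophil genes and 1 of 6 genes of red cell precursors, and none of these genes passed. Of 9 hepatocyte genes 4 were above 0, and G6pc, the glucose-6-phosphatase gene, was the one that passed (0.93 higher in the knockout arrays, limma adjusted p = 0.0379). With array 426, 427, 428, 429 or 431 left out, limma called 0 probe sets, G6pc included, while its difference stayed between 0.87 and 1.01. The part of smooth muscle, blood or other cells in the values of the 10 genes was not tested.

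**Figure D4:**
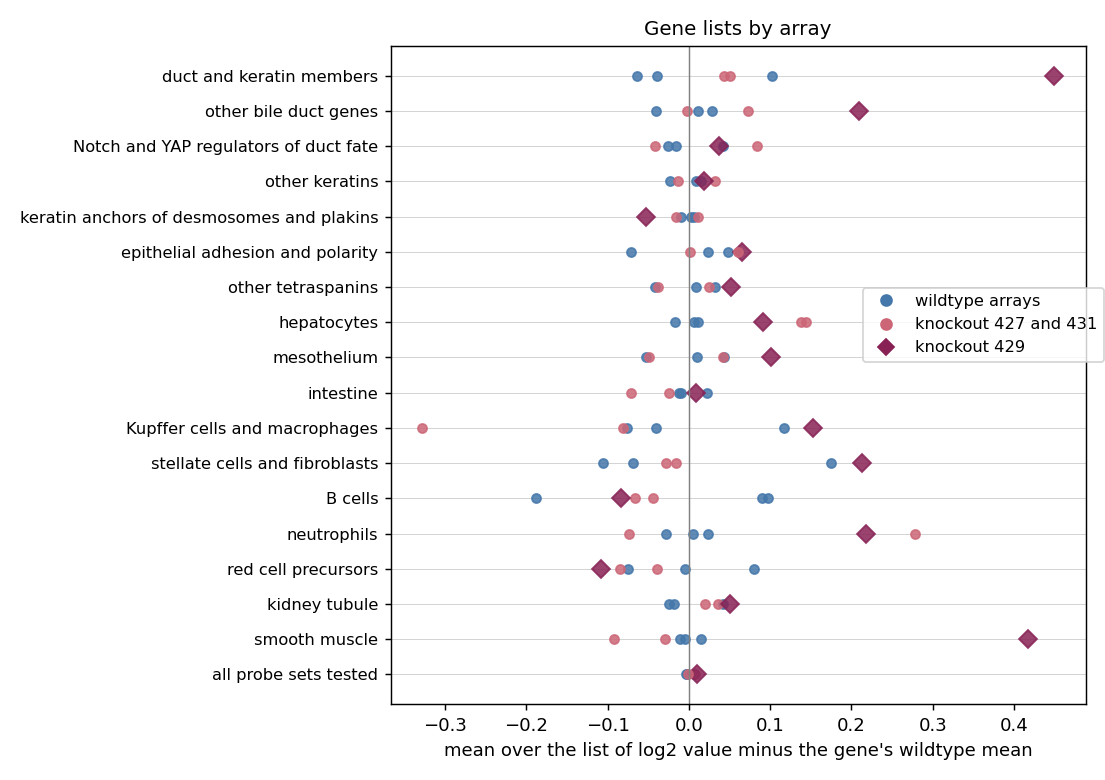
Mean over each gene list of the log2 value minus the gene's wildtype mean (horizontal axis), with 1 point per array; diamonds are knockout 429, and the exocrine pancreas list is left out because wildtype 430 would stretch the axis. Knockout 429 lies at 0.45 for the 10 genes, 0.42 for the smooth muscle list, 0.22 for neutrophils and 0.21 for the other bile duct genes and for stellate cells, and at 0.01 over all probe sets. The smooth muscle list was drawn up after values were seen.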

How the data were processed

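Labelled cRNA of 6 liver samples was measured on Affymetrix arrays (per the labels' protocols). The authors deposited 1 value per probe set and array without a stated scale, taken as log2 from the range (5.38 to 14.69, under the 16 that a 16-bit scanner allows); how they were normalized, and with which software, is not given in the sources used here. Of 16395 rows, 64 controls were left out. Row names are Entrez numbers: the platform annotation names 15644, several symbols occur for 0, and of the other 687 the RefSeq gene table (GRCm38.p6) names 473, Spp1 among them.

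Groups follow the titles. The 2 groups were fitted with lmFit and eBayes of limma 3.58.1 in R 4.3.3 (residual degrees of freedom 4, prior 4.85). P-values are two-sided and were adjusted by Benjamini-Hochberg across 16331 probe sets, with a threshold of 0.05. The median SE was 0.0847. The fit was tested on simulated data with independent normal noise and the same shift on all knockout arrays. A single outlying array was not simulated. Detection calls were not applied. Precision is limited by having 3 arrays a group. Values are compared within a gene, apart from Krt8 minus Krt18 within each array and the percentiles of mean level.

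The 10 genes and 17 lists were chosen with earlier results of these data known; the smooth muscle list was added after values were seen. Named are the 10 genes, up to 3 genes per list with the smallest p and up to 3 whose highest array lies furthest above the next, the 5 nearest profiles, and genes said to be chosen otherwise; defining markers are given for lists. One gene of the other bile duct list is counted but not reported here by name or plotted singly. Alternatives were quantile normalization, median centring, a filter at the 40th percentile, an intensity trend with robust variance, array weights, a threshold of 0.1 and leaving out arrays. Figures were drawn with matplotlib 3.10.9.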

Additional observations from a re-analysis of the deposited data

How the results depend on the processing

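None of the 10 genes passed an adjusted p of 0.05 in any of the 116 refits of single genes, with a lowest limma adjusted p of 0.634, and 0 passed at 0.1. The filter at the 40th percentile kept 6 of the 10 and dropped Krt7, Krt23, Epcam and Tspan8. Over all probe sets limma called 4, against 8 with array weights, 8 at a threshold of 0.1, 8 without wildtype 430 and knockout 427 together, and 0 to 4 when 1 array was left out. Of the 10 genes, 5 kept their sign in every refit (Krt23, Cd24a, Epcam, Spp1 and Tspan8). Leaving out 1 array gave -0.0801 to 0.164 for Krt7, -0.0563 to 0.202 for Krt8, -0.222 to 0.0570 for Krt18, -0.0594 to 0.572 for Krt19 and -0.0600 to 0.124 for Sox9; without wildtype 430 and knockout 427 together Krt18 was 0.0166 and Sox9 -0.0337. The median of the 10 genes ran from 0.0227 to 0.221 and that of the other bile duct genes from 0.0234 to 0.125 when 1 array was left out, lowest without knockout 429 for both. Of 215 refits of list medians, 20 moved by more than the spread between arrays; beyond the smaller set of genes or arrays, the cause was not tested. The count of 3 genes highest in knockout 429 by 0.5 was also 3 after quantile normalization or median centring, and 4 at a gap of 0.4 or 0.3, alternatives chosen after seeing the data. No paired analysis was made because the labels do not say which arrays, if any, form pairs.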

Other observations

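By count of such probe sets knockout 429 was not alone: 82 were highest by at least 0.5 in another array, 29 of them in knockout 427 and 24 in wildtype 430. Of the 28 probe sets that were highest in knockout 429 by at least 0.5, 16 were in no list used here. The following were picked from the 16 after their values were seen. The intestinal mucin gene Muc3 read 6.81 in knockout 429 and 6.14 to 6.22 on the other arrays, and Fxyd3, a regulator of the sodium pump in epithelia, read 7.43 against 6.49 to 6.73. The choline transporter family gene Slc44a4 read 6.79 against 5.98 to 6.23, and the hedgehog ligand gene Shh 7.11 against 6.09 to 6.43. B4galnt2, which makes the Sda blood group glycan, read 6.57 against 5.95 to 6.02. Crip1, a small LIM domain protein, read 8.89 against 7.92 to 8.22.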
